A study of Mus musculus with 12 samples.

Results

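Sugar crosses cell membranes through carriers, and 7 genes of hexose transport and fructose use were described here on 12 arrays: *Slc2a5*, *Slc2a1*, *Slc2a2*, *Slc2a3*, *Slc5a1*, *Khk* and *Treh*. They were found by exact gene symbol among the 21218 transcript clusters that carry a single symbol, and each matched 1 cluster. The 7 were chosen by name as a pathway, with their genotype and tissue differences on these arrays already known. The measured value in the rule, the highest mean signal where a symbol has several clusters, was not needed. A transcript cluster is the set of array probes summarised for a gene. RNA came from hippocampus and from ileum, which the titles name as Peyer's patches and the study describes as patches with the mucosa around them. Each tissue was taken from 3 FIRE +/+ and 3 FIRE -/- mice of 6 weeks on a C57BL/6J/CBA background, all perfused with saline. By the labels, each FIRE +/+ group held 2 males and 1 female and each FIRE -/- group 1 male and 2 females. FIRE is an intronic enhancer of *Csf1r*, the receptor gene that microglia and many other macrophages depend on, and FIRE -/- mice lack it on both alleles. The FIRE -/- line goes back to 1 founder male made by genome editing, whose offspring were interbred. The labels do not say whether a mouse gave 1 or both of its tissues.

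The SLC2 family (GLUT proteins) lets hexoses move down their gradient. SLC2A5 (GLUT5) is the fructose carrier of the intestinal brush border and, in the brain, is known from microglia. SLC2A1 (GLUT1) carries glucose across brain endothelium and into glia, and SLC2A3 (GLUT3) is the carrier of neurons. In enterocytes, SLC5A1 (SGLT1) couples glucose entry to sodium, trehalase (*Treh*) splits trehalose at the brush border, ketohexokinase (*Khk*) phosphorylates fructose, and SLC2A2 (GLUT2) releases hexoses towards the blood. Fructose use and glucose use thus meet in the gut epithelium, while brain tissue mostly takes up glucose.

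Promoter sequences of the 3 carriers on which the comparisons turn are shown for orientation, from 250 bases before to 50 bases after the annotated start, in RefSeq GRCm38.p6. Of the 7 genes, 6 had such a sequence. *Slc2a5* lies at chr4:150119094-150119393, *Slc2a1* at chr4:119108495-119108794 and *Slc2a2* at chr3:28697653-28697952, all on the + strand. Each is written 5′ to 3′, with capitals for the motifs found.
Slc2a5: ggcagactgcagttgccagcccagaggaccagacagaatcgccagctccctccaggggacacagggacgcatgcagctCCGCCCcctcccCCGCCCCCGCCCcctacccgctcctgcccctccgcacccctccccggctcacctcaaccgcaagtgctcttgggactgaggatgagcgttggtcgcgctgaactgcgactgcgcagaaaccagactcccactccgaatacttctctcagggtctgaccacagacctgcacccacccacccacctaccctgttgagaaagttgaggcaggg
Slc2a1: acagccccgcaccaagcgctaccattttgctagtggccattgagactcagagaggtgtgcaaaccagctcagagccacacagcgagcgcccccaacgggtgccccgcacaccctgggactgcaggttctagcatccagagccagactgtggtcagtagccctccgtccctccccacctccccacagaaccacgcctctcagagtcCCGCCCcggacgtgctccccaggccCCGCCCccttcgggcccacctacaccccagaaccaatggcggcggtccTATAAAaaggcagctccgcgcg
Slc2a2: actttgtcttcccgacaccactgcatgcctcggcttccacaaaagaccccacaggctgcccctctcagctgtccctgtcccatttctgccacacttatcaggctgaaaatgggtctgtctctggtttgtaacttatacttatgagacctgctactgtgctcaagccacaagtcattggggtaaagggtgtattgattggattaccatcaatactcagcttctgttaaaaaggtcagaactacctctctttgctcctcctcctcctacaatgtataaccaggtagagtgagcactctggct
In *Slc2a5* the capitals are 3 GC boxes (GGGCGG, read here on the opposite strand as CCGCCC), of which a pair abut. In *Slc2a1* they are 2 GC boxes, also on the opposite strand, and 1 TATA box (TATAAA). The GC share was 65.3% for both. The *Slc2a2* promoter had a GC share of 48.0% and none of the 6 motifs searched on both strands. These were the GC box, the TATA box, an E box (CACGTG), a PU.1 core (GAGGAAG), part of an HNF1 site (GTTAAT) and a CDX motif (TTTATG). Over 32851 promoters of this length, 35.7% held the GC box, 13.6% the TATA box and 7.15% the E box. The PU.1 core was in 13.6%, the part of an HNF1 site in 7.1% and the CDX motif in 11.9%. A match of letters describes the sequence and is no evidence of binding.

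Values are RMA signals on a log2 scale, so a difference of 1 is a doubling of signal. Array medians lay between 4.29 and 4.46, and the deposited table holds no detection call. Probes of different genes differ in brightness, so levels are compared between groups and not between genes. Pairs of arrays correlated over clusters with r of 0.991 to 0.996 within the hippocampus and 0.981 to 0.992 within the ileum. *Csf1r*, the gene under the deleted enhancer, lay at 8.15 to 8.34 in FIRE +/+ and 3.58 to 3.69 in FIRE -/- hippocampus, and at 7.39 to 8.17 and 6.44 to 7.53 in the ileum. Defining markers matched the tissues, since the mean of 7 neuron markers was 11.44 to 11.56 on the hippocampus arrays and that of 13 enterocyte markers was 11.10 to 11.56 on the ileum arrays. The FIRE -/- hippocampus array B09, labelled female, read *Xist* at 2.44 and the Y-linked *Eif2s3y* at 6.18, as the arrays labelled male do. The ileum arrays D09 (FIRE +/+) and F09 (FIRE -/-) had a mean of 8 B cell markers of 7.52 and 7.64, against 3.31 to 3.68 on the other 4. The hippocampus arrays had 2.75 to 3.05. All ileum titles name Peyer's patches, but a strong B cell signal was thus present on D09 and F09 alone. Values of the 7 genes in the genotype comparisons are also given without B09 in the hippocampus and without D09 and F09 in the ileum.

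The first comparison asks which genes of sugar handling differ in a hippocampus whose *Csf1r* enhancer is missing. *Slc2a5*, the fructose carrier, was the one gene of the 7 that passed the test, and it fell. The glucose carriers *Slc2a1* and *Slc2a3* and the other 4 genes did not pass. The share of 1 in 7 stands beside a share of 0.448% over all clusters, which is 95 clusters, all lower in FIRE -/-. Since the choice of genes knew these results, the p-values, taken from the fit over all clusters, describe the values and add no independent support.

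*Slc2a5* read 6.51, 6.20 and 6.21 on the FIRE +/+ hippocampus arrays E07, F07 and G07. It read 3.69, 3.77 and 3.87 on the FIRE -/- arrays A09, B09 and H07. All FIRE +/+ values were thus well above their array medians and all FIRE -/- values below them, with a wide gap between the groups. Groups lay apart, with FIRE -/- lower, in 5.2% of all clusters. The means were 6.31 ± 0.17 and 3.77 ± 0.09 (SD, n = 3 each), a difference of -2.53 (standard error 0.11, 95% confidence interval -2.79 to -2.27, limma adjusted p = 3.44e-05), or 5.79-fold lower in signal. It was the 13th smallest p and the 20th lowest difference of the 21218 clusters. In whole tissue, fewer cells of a type and less RNA per cell cannot be told apart.

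**Figure D1:**
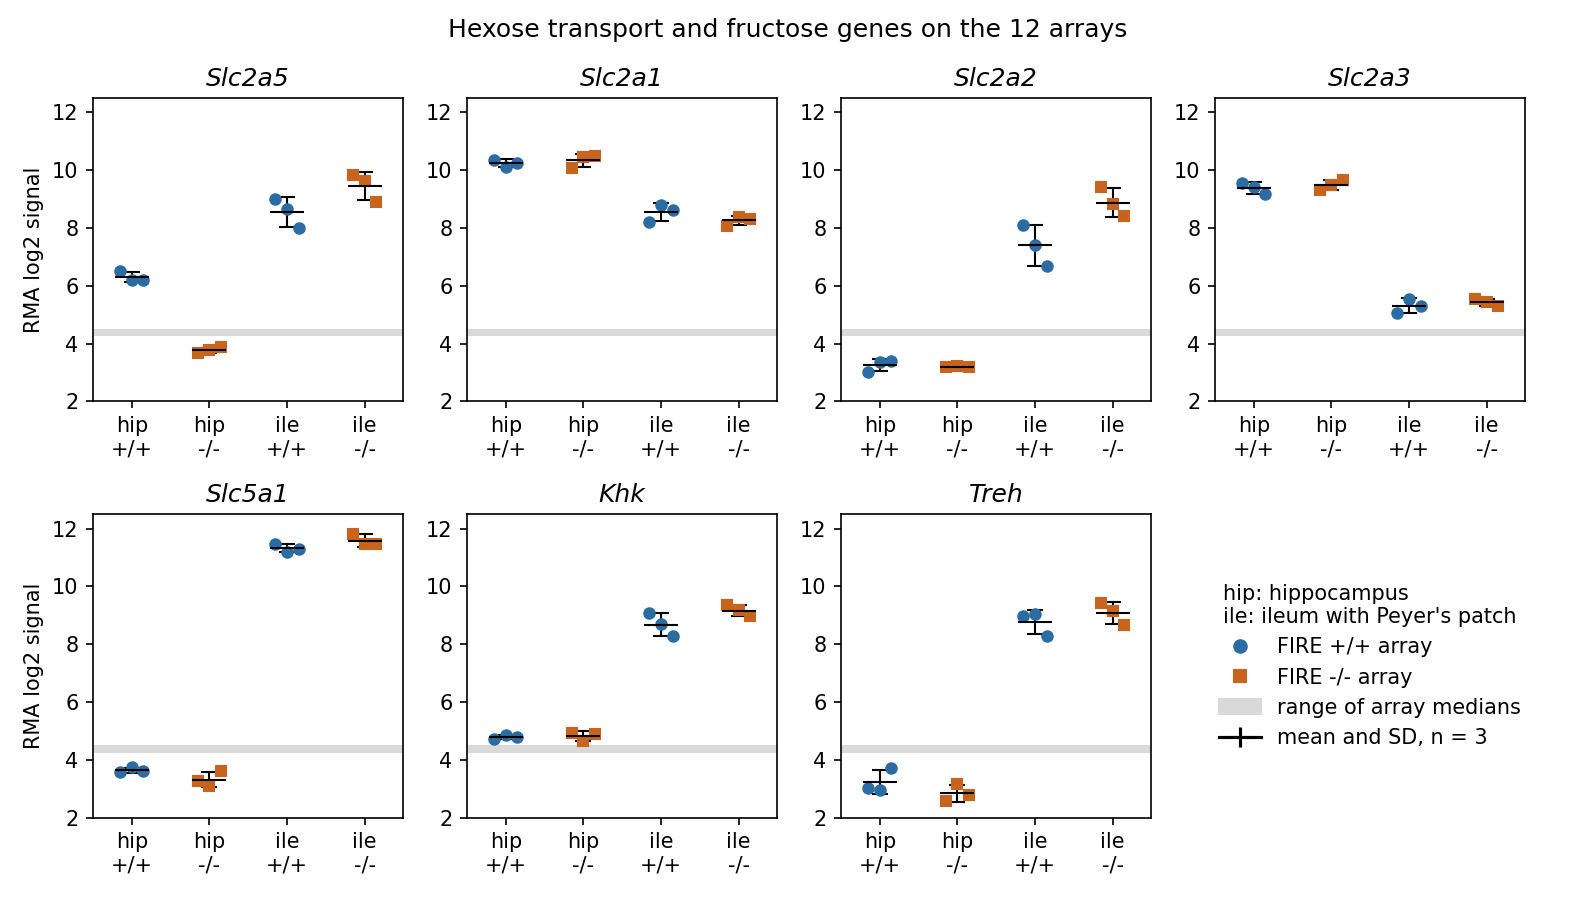
RMA log2 signal (y axis) of the 7 genes on the 12 arrays, by tissue and genotype (x axis), with points for arrays, bars for the mean and SD of 3 arrays and a grey band for the range of array medians, 4.29 to 4.46. *Slc2a5* drops from 6.20 or more in FIRE +/+ hippocampus to 3.87 or less in FIRE -/- hippocampus, and the other 6 genes overlap there.

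The *Slc2a5* difference was also computed without single arrays. Without B09 it was -2.53 (limma adjusted p = 0.000708), and over the 6 fits that each left out 1 array it lay between -2.59 and -2.43. The titles of the arrays carry a code of 07 or 09 whose meaning is not given. The 3 FIRE +/+ arrays and H07 carry 07, and A09 and B09 carry 09. On the 4 arrays with 07 alone, where 1 FIRE -/- array, H07, is assumed to vary like the others, the difference was -2.44 (limma adjusted p = 0.0196). The fit with the code as a covariate rests on the same contrast of H07 with the FIRE +/+ arrays and so gave the same difference (limma adjusted p = 0.00268).

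*Slc2a5* fell together with microglia markers. Of 17 measured markers, 14 passed the test and were lower, against 0.448% of all clusters. All 17 had a difference below 0, with groups that did not overlap, against 5.2% of all clusters apart with FIRE -/- lower. The median difference of the 17 was -2.73, against 0.0077 over all clusters, with a range from -4.63 to -0.77. The mean of the 17 lay between 6.70 and 6.93 on the FIRE +/+ arrays and between 4.01 and 4.22 on the FIRE -/- arrays. The largest difference was -4.63 for *Csf1r*, the gene whose own enhancer was deleted. Next were -4.39 for *Selplg* (the P-selectin ligand), -4.02 for *Ctss* (cathepsin S), -3.69 for *P2ry13* and -3.48 for *Cx3cr1* (receptors for nucleotides and fractalkine), and -3.16 for *C1qb* (complement). The difference of *Slc2a5* is within the range of the 17 markers, with or without *Csf1r*. Their part in the *Slc2a5* result was not tested.

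Over the 6 hippocampus arrays, the clusters whose signal followed *Slc2a5* most closely were *Tnfaip8l2* (Pearson r = 0.999), *Spi1*, *Csf1r*, *Cd53* and *Nckap1l* (each 0.997) and *P2ry12* (0.996). These points fall into the same pair of groups as the genotypes, so any cluster that differs between them scores high. *Spi1* encodes the myeloid factor PU.1, *Cd53* a leukocyte tetraspanin and *Nckap1l* a haematopoietic actin regulator. Over all 12 arrays the closest were *Fyb* (0.981), *Unc93b1* and *Kcnk6* (0.974 each), and *Slco2b1*, *Gmfg* and *Irf8* (0.972 each), and there the points share the split by tissue. *Irf8*, a transcription factor of macrophages and other immune cells, averaged 5.61 and 3.96 in FIRE +/+ and FIRE -/- hippocampus and 9.19 and 9.24 in the ileum.

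The main glucose carriers of brain kept high signals. *Slc2a1* read 10.36, 10.11 and 10.26 in FIRE +/+ and 10.08, 10.47 and 10.49 in FIRE -/- hippocampus. *Slc2a3* read 9.56, 9.43 and 9.17 in FIRE +/+ and 9.30, 9.48 and 9.66 in FIRE -/-. In both genes the groups interleaved. The difference was 0.10 for *Slc2a1* (standard error 0.13, 95% confidence interval -0.21 to 0.40) and 0.09 for *Slc2a3* (standard error 0.13, 95% confidence interval -0.22 to 0.40), with a limma adjusted p of 0.992 for each. These intervals do not reach a change of 0.5 in either direction, but those of other fits did. Without moderation of the spread the upper limits were 0.51 for *Slc2a1* and 0.52 for *Slc2a3*. With the array code as a covariate the differences were 0.24 and 0.27, with upper limits of 0.69 and 0.70. The mean of 10 brain endothelial markers was 7.18 to 7.28 in FIRE +/+ and 7.14 to 7.24 in FIRE -/-, that of 8 astrocyte markers 8.97 to 9.12 and 9.12 to 9.24, and no marker of these lists or of the neuron list passed the test. *Gfap*, an astrocyte filament gene, was closest, at 8.99, 9.28 and 9.13 in FIRE +/+ and 9.59, 9.77 and 9.70 in FIRE -/-, a difference of 0.56 (standard error 0.10, 95% confidence interval 0.31 to 0.80, limma adjusted p = 0.142) with groups apart.

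The genes of intestinal sugar uptake were dim in the hippocampus. *Slc2a2* read 3.02, 3.36 and 3.40 in FIRE +/+ and 3.18, 3.22 and 3.18 in FIRE -/-. *Slc5a1* read 3.58, 3.74 and 3.61 in FIRE +/+ and 3.26, 3.09 and 3.60 in FIRE -/-. *Treh* read 3.02, 2.97 and 3.73 in FIRE +/+ and 2.57, 3.16 and 2.80 in FIRE -/-. All these values were below the array medians, and the genotypes overlapped in each gene. *Khk*, at 4.71, 4.85 and 4.78 in FIRE +/+ and 4.94, 4.64 and 4.89 in FIRE -/-, lay just above the medians. The differences were -0.06 for *Slc2a2* (standard error 0.12), -0.33 for *Slc5a1* (standard error 0.14), -0.40 for *Treh* (standard error 0.23) and 0.04 for *Khk* (standard error 0.11), with a limma adjusted p of 0.992 for each. Their 95% confidence intervals ran from -0.33 to 0.20, -0.65 to -0.01, -0.93 to 0.13 and -0.20 to 0.29. Without B09 the differences were 0.04 for *Slc2a1*, 0.09 for *Slc2a3*, -0.08 for *Slc2a2*, -0.22 for *Slc5a1*, -0.56 for *Treh* and 0.14 for *Khk*, and none was called.

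**Figure D2:**
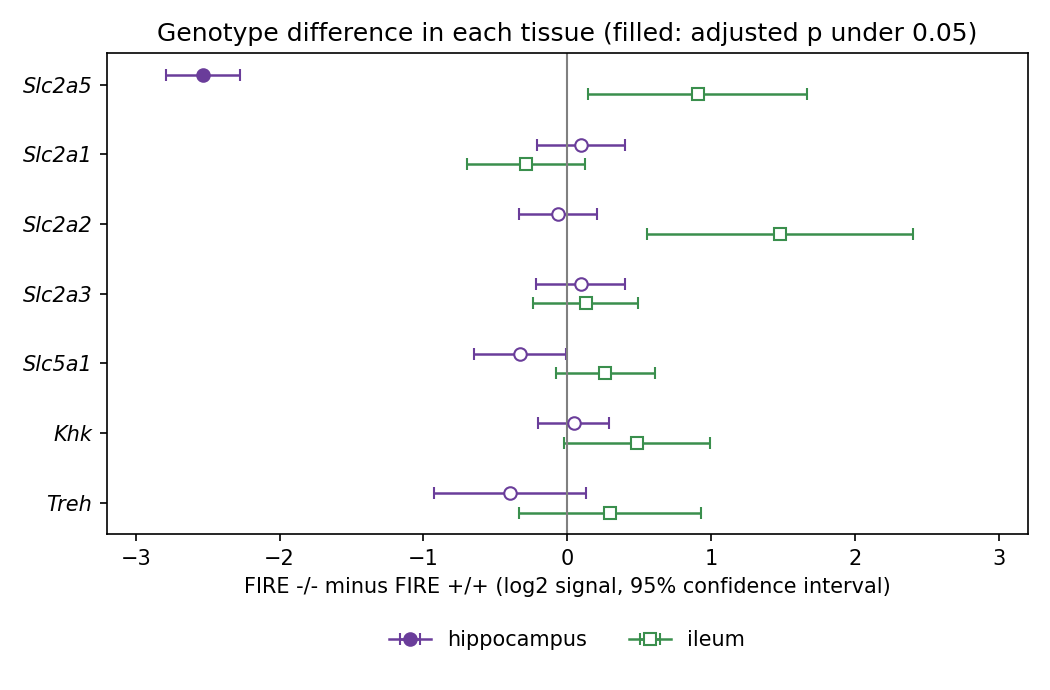
Difference in log2 signal between FIRE -/- and FIRE +/+ (x axis) for the 7 genes (y axis) in hippocampus and ileum, with the 95% confidence interval of the limma fit and filled symbols where the adjusted p was under 0.05. *Slc2a5* in the hippocampus, at -2.53, is the one filled symbol.

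The wider pathway was described by gene lists. None of the 8 other facilitative carriers passed the test in the hippocampus (median difference -0.03), and the furthest from 0 were *Slc2a12* at 0.57 (standard error 0.44), *Slc2a7* at -0.21 and *Slc2a6* at 0.14. None of 6 measured genes among other sodium-coupled sugar carriers and *Slc50a1* passed (median -0.11). None of 10 measured genes of fructose and polyol metabolism passed, with *Mlxipl*, the sugar-responsive factor ChREBP, at -0.37, the gluconeogenic *Pck1* at 0.35 and *Glyctk*, a kinase of the fructose route, at 0.26 (median -0.02). None of 17 measured glycolysis genes passed (median 0.0060), and their lowest was *Hk2*, a hexokinase, at -0.34. Among sugar carriers and enzymes listed, *Slc2a5* was thus the one gene called. With 0.448% of all clusters called, lists of this size would hold few calls in any case. At an unadjusted p under 0.05 limma had 1004 of all 21218 clusters and 2 of the 7 genes, *Slc2a5* and *Slc5a1*. It had 3 of the 10 fructose and polyol genes and 0 in the other 3 lists. Groups lay apart in 3 of these 10, 2 of the 8 carriers, 0 of the 6 and 2 of the 17, against 9.66% of all clusters.

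**Figure D3:**
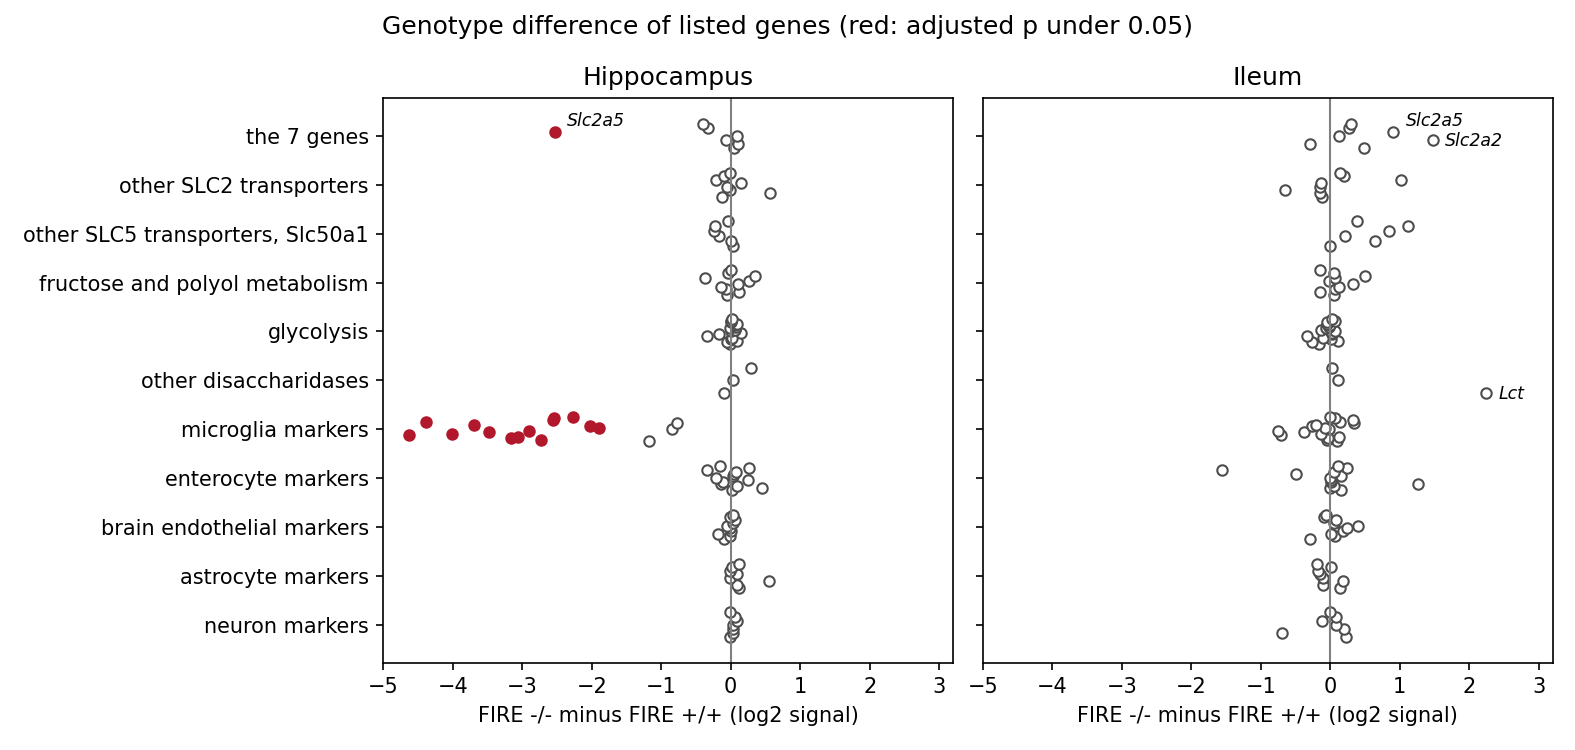
Difference in log2 signal between FIRE -/- and FIRE +/+ (x axis) in hippocampus (left) and ileum (right) for the genes of each list (y axis), 1 point per gene, red where the limma adjusted p was under 0.05. In the hippocampus the red points are *Slc2a5* and 14 microglia markers, and in the ileum there are none.

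The second comparison asks whether the same genes differ in the ileum, where the fructose carrier belongs to the epithelium. No gene of the 7 passed the test, and neither did any of the 21218 clusters (0% called). At an unadjusted p under 0.05 limma had 720 clusters, 327 lower and 393 higher, and *Slc2a5* and *Slc2a2* were among them. The test without moderation of the spread also called 0. Of the 7 genes, 6 had a difference above 0, with a median of 0.30, against -0.0099 over all clusters.

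*Slc2a5* read 8.996, 8.67 and 8.003 on the FIRE +/+ ileum arrays C09, D09 and E09. It read 9.85, 9.63 and 8.91 on the FIRE -/- arrays F09, G09 and H09. The lowest FIRE -/- value was under the highest FIRE +/+ value, so the groups overlapped. The difference was 0.91 (standard error 0.32, 95% confidence interval 0.15 to 1.66, limma adjusted p = 0.999), and without D09 and F09 it was 0.77 (95% confidence interval -0.24 to 1.79). No decrease like that of the hippocampus was seen, since that interval reaches no lower than -0.24.

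*Slc2a2* had the largest difference of the 7 in the ileum. It read 8.11, 7.40 and 6.69 in FIRE +/+ and 9.41, 8.83 and 8.40 in FIRE -/-. The groups did not overlap, which held for 1 of the 7 genes and for 8.04% of all clusters (3.52% with FIRE -/- higher and 4.52% with FIRE -/- lower). The difference was 1.48 (standard error 0.39, 95% confidence interval 0.55 to 2.40, limma adjusted p = 0.999). Without D09 and F09 it was 1.21 (95% confidence interval 0.0057 to 2.42).

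*Khk* read 9.09, 8.68 and 8.27 in FIRE +/+ and 9.35, 9.17 and 8.98 in FIRE -/-. *Treh* read 8.98, 9.06 and 8.28 in FIRE +/+ and 9.42, 9.14 and 8.65 in FIRE -/-. *Slc5a1* read 11.47, 11.20 and 11.28 in FIRE +/+ and 11.83, 11.46 and 11.46 in FIRE -/-. In each of these the groups overlapped, with the FIRE +/+ array C09 inside the FIRE -/- range each time. The differences were 0.49 for *Khk* (standard error 0.22, 95% confidence interval -0.02 to 0.99), 0.30 for *Treh* (standard error 0.27, -0.34 to 0.93) and 0.26 for *Slc5a1* (standard error 0.15, -0.08 to 0.61), with a limma adjusted p of 0.999 for each.

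The glucose carriers of brain did not share this direction in full, as *Slc2a1* was lower and *Slc2a3* higher on average, neither past the test. *Slc2a1* read 8.23, 8.81 and 8.62 in FIRE +/+ and 8.09, 8.40 and 8.31 in FIRE -/-, and *Slc2a3* read 5.04, 5.56 and 5.31 and then 5.55, 5.45 and 5.30. Both genes overlapped between genotypes. The differences were -0.29 (standard error 0.17, 95% confidence interval -0.70 to 0.12) and 0.13 (standard error 0.15, -0.24 to 0.49), with a limma adjusted p of 0.999 for each. Without D09 and F09 the differences were -0.07 for *Slc2a1*, 0.20 for *Slc2a3*, 0.08 for *Slc5a1*, 0.40 for *Khk* and 0.27 for *Treh*, and none was called.

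Within the ileum the epithelial genes varied together from array to array. F09 was the highest array for 5 of the 7 genes, and E09 the lowest for 4, which were *Slc2a5*, *Slc2a2*, *Khk* and *Treh*. *Slc2a5* and *Khk* had the same order, from E09 through D09, H09, C09 and G09 to F09. Their ranges over the 6 arrays were 1.84 for *Slc2a5*, 2.72 for *Slc2a2*, 1.07 for *Khk* and 1.14 for *Treh*, against 0.63 for *Slc5a1*.

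Genes whose expression differs along the small intestine differed between the same arrays. *Lct*, the lactase gene, which is high in the proximal intestine and low distally, read 10.94, 8.58 and 6.50 in FIRE +/+ and 11.45, 11.55 and 9.77 in FIRE -/-. *Gata4*, a transcription factor of the proximal small intestine, read 8.09, 6.34 and 4.56 in FIRE +/+ and 8.63, 8.69 and 7.17 in FIRE -/-. For both, E09 was lowest, then D09 and H09, as for *Slc2a5*. *Fabp1*, a proximal fatty acid carrier, read 7.67, 5.72 and 5.97 and then 9.62, 8.44 and 6.81. *Slc10a2*, the bile acid carrier of the terminal ileum, read 8.24, 9.16 and 9.79 in FIRE +/+ and 8.18, 5.58 and 8.76 in FIRE -/-, so that E09 was highest and G09 lowest. *Fabp6*, the ileal bile acid binding protein, read 11.51, 10.91 and 11.12 and then 11.22, 9.26 and 11.59, with G09 lowest. *Gata4* and *Fabp1* were added after values had been seen, and all 5 genes were singled out for this description after that. Genotypes overlapped in each of these 5 genes, and their part in the *Slc2a5* and *Slc2a2* values was not tested.

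**Figure D4:**
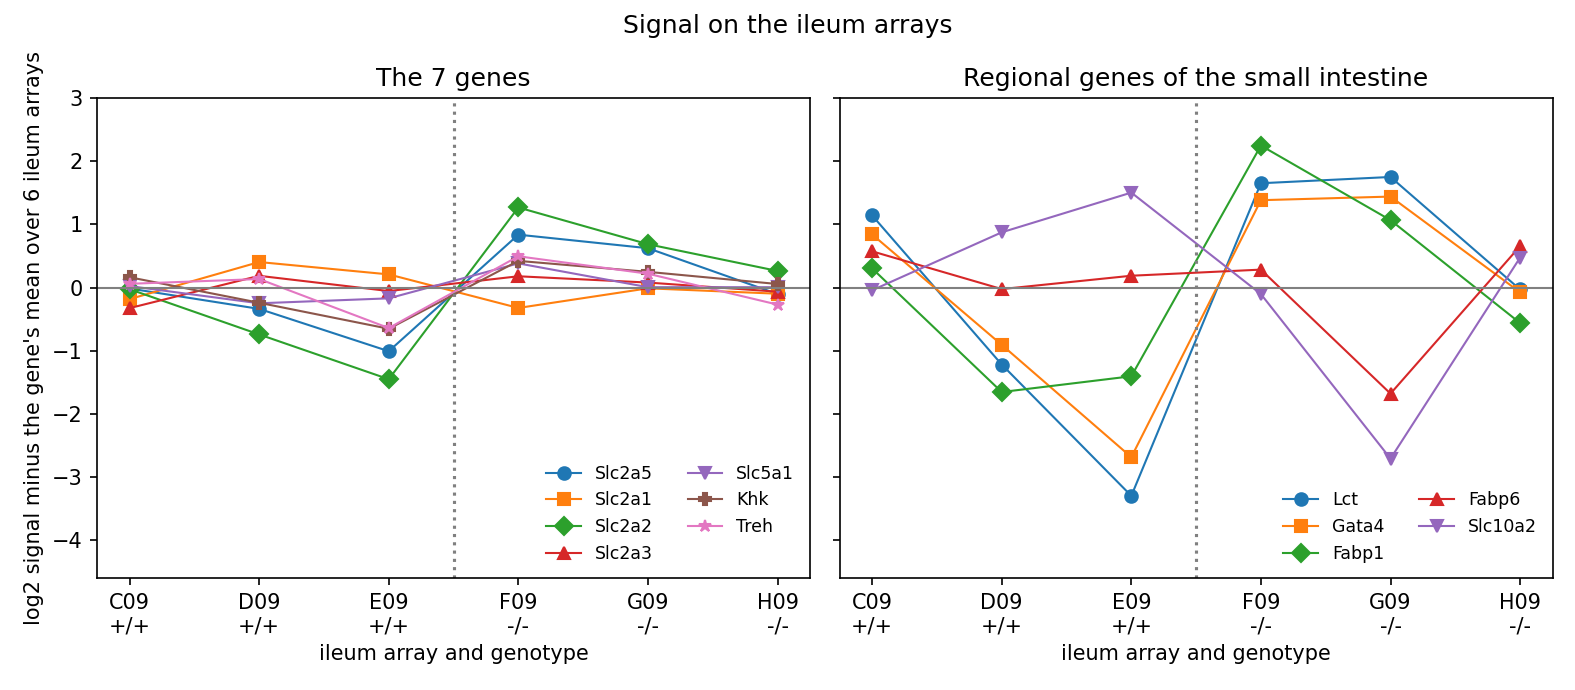
Log2 signal minus the gene's mean over the 6 ileum arrays (y axis) for each array and genotype (x axis), with the 7 genes on the left and 5 genes that differ along the small intestine on the right. E09 is lowest and F09 highest for *Slc2a5*, *Slc2a2*, *Khk* and *Treh*, and E09 is lowest for *Lct* and *Gata4* and highest for *Slc10a2*.

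Several other sugar carriers, though not all, had the same extremes. *Slc5a4b*, a relative of *Slc5a1*, read 9.35, 7.61 and 7.16 in FIRE +/+ and 10.00, 9.13 and 8.36 in FIRE -/-, a difference of 1.12. *Slc5a4a* differed by 0.85, *Slc5a11*, an inositol carrier, by 0.64 and *Slc2a7*, a carrier related to *Slc2a5*, by 1.02. Others ran the opposite way. *Slc2a13* read 6.82, 7.24 and 7.11 in FIRE +/+ and 5.77, 6.70 and 6.76 in FIRE -/-, lowest on F09 and apart between genotypes, a difference of -0.65 (standard error 0.27). *Slc2a4* was highest on E09, at 7.38, and lowest on F09, at 6.50. None of these carriers passed the test, and the counts called in the ileum were 0 of 8 facilitative carriers (median -0.13), 0 of 6 in the sodium-coupled list (median 0.51), 0 of 10 genes of fructose and polyol metabolism (median 0.06), 0 of 17 glycolysis genes (median -0.01) and 0 of 3 other disaccharidases (median 0.11). The 13 enterocyte markers had a list mean of 11.30 to 11.49 in FIRE +/+ and 11.10 to 11.56 in FIRE -/-, over members that went both ways. *Apoa4*, an apolipoprotein gene, read 11.50, 10.45 and 10.02 in FIRE +/+ and 12.04, 12.23 and 11.49 in FIRE -/-, a difference of 1.26, while *Slc10a2* differed by -1.56 and *Fabp6* by -0.49, none past the test. Microglia markers, several of which gut macrophages share, were called in 0 of 17 cases there (median -0.04).

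The third comparison asks whether the genotype difference itself differs between the tissues. It did for *Slc2a5*, which fell by 2.53 in the hippocampus while its ileum difference was 0.91. The difference between these was -3.44 (standard error 0.37, 95% confidence interval -4.24 to -2.63, limma adjusted p = 0.00273), the 8th smallest p over all clusters. It was 1 of the 7 genes, against 0.0895% of all clusters, which is 19, all lower. The call ended without moderation of the spread (limma adjusted p = 0.0918), where 0 of the 7 were called. Without D09 and F09 the value was -3.30 (limma adjusted p = 0.00643), and without B09 it was -3.44 (limma adjusted p = 0.0127). With the array code as a covariate it was -3.35 (limma adjusted p = 0.0416). The code term of that fit comes from the FIRE -/- hippocampus arrays alone.

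For *Slc2a2* the difference between tissues was -1.54 (standard error 0.44, 95% confidence interval -2.52 to -0.57, limma adjusted p = 0.917). For *Treh* it was -0.69, for *Slc5a1* -0.59, for *Khk* -0.44, for *Slc2a1* 0.39 and for *Slc2a3* -0.04, and none passed. Of 17 microglia markers, 8 were lower by this test, against 0.0895% of all clusters. No gene of the carrier, fructose, glycolysis or disaccharidase lists was called.

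The last comparisons set hippocampus against ileum within each genotype, and asked which tissue each gene marks. All 7 genes passed in both genotypes, 5 lower and 2 higher in the hippocampus. Over all clusters 59.8% passed in FIRE +/+ (31.1% lower and 28.7% higher) and 61.3% in FIRE -/- (31.8% lower and 29.5% higher), so a call alone says little and the sizes are given. The genes lower in brain were the fructose carrier *Slc2a5* and the enterocyte genes *Slc2a2*, *Slc5a1*, *Khk* and *Treh*, and those higher were the glucose carriers *Slc2a1* and *Slc2a3*.

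In FIRE +/+, *Slc5a1* differed by -7.68 (standard error 0.15, limma adjusted p = 1.11e-12). *Treh* differed by -5.54 (standard error 0.27, limma adjusted p = 2.78e-09), *Slc2a2* by -4.14 (standard error 0.31, limma adjusted p = 1.63e-07) and *Khk* by -3.90 (standard error 0.18, limma adjusted p = 1.37e-09). The hippocampus signals of *Slc5a1*, *Treh* and *Slc2a2* lay below the array medians, so the sizes of these differences are not ranked between genes. *Slc2a5* differed by -2.25 (standard error 0.26, limma adjusted p = 8.41e-06), or 4.76-fold. On the other side, *Slc2a3* was higher in the hippocampus by 4.08 (standard error 0.15, limma adjusted p = 1.87e-10), or 16.9-fold, and *Slc2a1* by 1.70 (standard error 0.16, limma adjusted p = 1.48e-06), or 3.24-fold.

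In FIRE -/-, *Slc2a5* differed by -5.69 (standard error 0.26, limma adjusted p = 1.27e-09) and *Slc2a2* by -5.68 (limma adjusted p = 7.71e-09). The hippocampus signal of *Slc2a5* also lay below the array medians in this genotype, so its value is no exact fold of transcript. *Slc5a1* was at -8.27, *Treh* at -6.23 and *Khk* at -4.34, and *Slc2a3* at 4.05 and *Slc2a1* at 2.08. The tissue differences of the 2 genotypes were thus 0.04 apart for *Slc2a3* and 3.44 apart for *Slc2a5*. The levels of *Slc2a5* rose from FIRE -/- hippocampus through FIRE +/+ hippocampus to FIRE +/+ and then FIRE -/- ileum, where the last pair overlapped. In FIRE +/+ all 3 hippocampus arrays carry the code 07 and all 3 ileum arrays 09, so tissue and code cannot be told apart there. A fit with the code as a covariate takes its code term from the FIRE -/- hippocampus arrays alone. In that fit, and without D09 and F09, 5 genes stayed lower and 2 higher in each genotype.

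**Figure D5:**
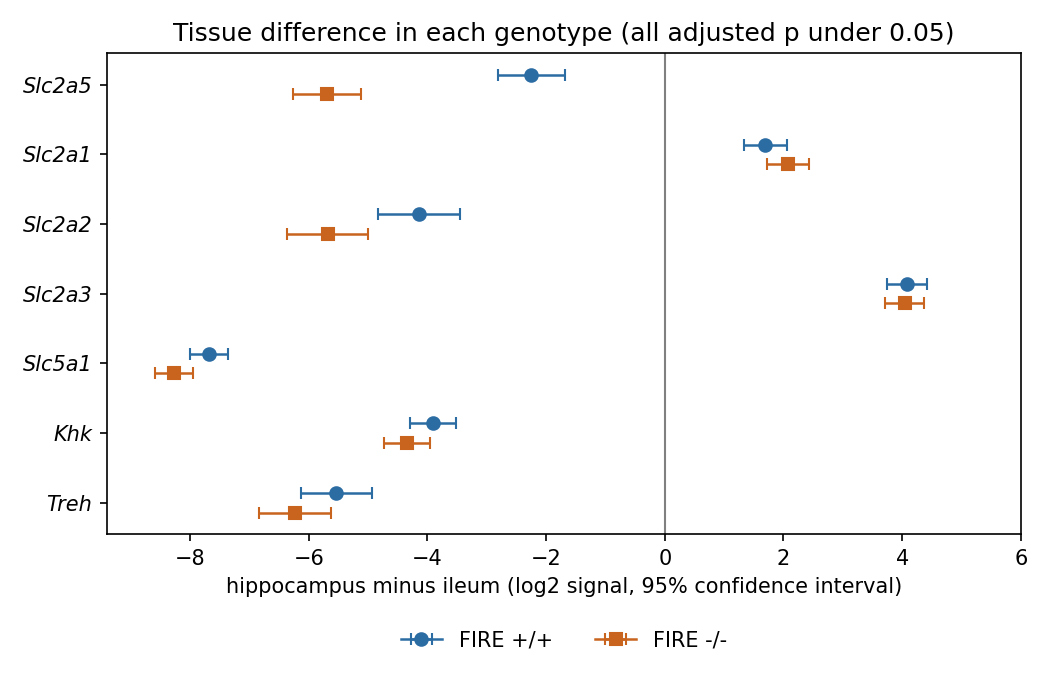
Difference in log2 signal between hippocampus and ileum (x axis) for the 7 genes (y axis) in FIRE +/+ and FIRE -/- mice, with the 95% confidence interval of the fit of all 12 arrays. For *Slc2a5* the value moves from -2.25 in FIRE +/+ to -5.69 in FIRE -/-, and *Slc2a1* and *Slc2a3* lie above 0 in both.

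Listed genes around these were called in both directions between the tissues. Over all clusters 31.1% were lower in the hippocampus and 28.7% higher in FIRE +/+, and 31.8% and 29.5% in FIRE -/-. A count near these shares says little about a list. In FIRE +/+ all 10 measured genes of fructose and polyol metabolism were lower in the hippocampus (median -4.10, against -0.03 over all clusters), led by *Fbp2* at -6.93 and *Fbp1* at -5.86 (fructose bisphosphatases), *G6pc* at -6.24 (glucose-6-phosphatase) and *Pck1* at -4.95. Of 17 glycolysis genes, 10 were higher and 4 lower, with *Eno2*, the neuronal enolase, at 5.78, *Aldoc*, an aldolase of astrocytes, at 4.53, *Pfkm* at 3.41 and *Hkdc1* at -4.88. Of 8 other facilitative carriers, 4 were higher and 4 lower, among them *Slc2a6* at 2.64, the inositol carrier *Slc2a13* at 2.57, the urate carrier *Slc2a9* at -3.06 and the insulin-responsive *Slc2a4* at -3.50. In the sodium-coupled list 4 of 6 were lower. Of the other disaccharidases, *Sis* (sucrase-isomaltase) differed by -8.84 and *Mgam* (maltase-glucoamylase) by -8.61, while *Lct* was at -0.99 (limma adjusted p = 0.342). In FIRE -/- the counts were 10 of 10 lower for fructose and polyol metabolism, 10 higher and 4 lower for glycolysis, 3 higher and 4 lower for facilitative carriers, 5 of 6 lower for the sodium-coupled list and 3 of 3 lower for disaccharidases.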

How the data were processed

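Total RNA was hybridised to Affymetrix Mouse Gene 1.0 ST arrays. The authors normalised the images by RMA (version not stated), and the deposited table holds log2 values, 1 per transcript cluster and array, used without further scaling. Of 35556 clusters, 21218 had 1 symbol in the platform annotation (18820 genes) and entered the tests. Another 1881 had several symbols and 12457 had none. The authors' own tables of fold changes and p-values were not used. Genotypes were compared within each tissue, and tissues and their genotype differences in 1 fit of all 12 arrays with 4 group means, by two-sided moderated tests (lmFit, then eBayes) in limma 3.58.1 under R 4.3.3, with Benjamini-Hochberg adjustment over 21218 clusters and a threshold of 0.05. There was no filter on signal. Precision is limited by the number of arrays, and 3 against 3 allows no exact permutation p under 0.1. The labels name separate samples but not the mice, so the spread may be partly technical.

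The members and lists were chosen with earlier results of these data known. Named are the 7 genes, of each list the called genes (up to 6) or else up to 3 of largest genotype difference and up to 4 of largest tissue difference, and the 6 clusters most like *Slc2a5*. *Lct*, *Gata4*, *Fabp1*, *Fabp6* and *Slc10a2* in the ileum, *Irf8* levels, *Gfap*, *Apoa4*, the opposite pattern of *Slc2a4* and the *Slc5a4b* array values were singled out after values were seen. Some listed genes are not analysed here, and counts are of measured genes. Alternatives covered moderation, normalization, clusters tested, dim clusters, sex, array weights, arrays fitted, array code and leaving out arrays. The fits were tested on simulated data.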

Additional observations from a re-analysis of the deposited data

Results flagged for a closer look

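The genotype difference of *Slc2a5* differed between the tissues, by -3.44 on the log2 scale (limma adjusted p = 0.00273 over all clusters). It was lower in FIRE -/- in 3 of 3 hippocampus arrays, while the ileum arrays of both genotypes overlapped and their means differed by 0.91 in the other direction. Leaving out 1 array at a time gave values from -3.72 to -3.16, with limma adjusted p between 0.000948 and 0.0165.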

How the results depend on the processing

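Of 676 recomputed differences of the 7 genes, 666 kept their direction and their side of the threshold, and of 291 recomputed counts 281 stayed within 1.5 times the count reported. *Slc2a5* in the hippocampus stayed called in all 16 alternatives, from -2.59 to -2.43. The highest adjusted p was 0.0339, from the ordinary t-test without moderation. All 7 genes stayed called between tissues, and the ileum had 0 clusters called in each of 15 alternatives. The difference of *Slc2a5* between tissues was -3.44 and no longer called without moderation (ordinary t-test, adjusted p = 0.0918, 0 of 7 genes lower). Clusters called in the hippocampus, 95 as reported, were 25 without moderation, 41 with all 12 arrays in the fit, 34 with the 4 arrays coded 07, and 72 to 93 with 1 array left out. Those called between tissues, 19 as reported, were 8 without moderation, 34 with array weights, 65 without D09 and F09, and 12 to 41 with 1 array left out (12 without E07 or B09, 41 without D09). Signs near 0 turned, none of them called. In the hippocampus *Slc2a2* ranged from -0.19 to 0.0048, above 0 without G07, *Slc2a3* from -0.014 (without G07) to 0.18 and *Khk* from -0.016 (without A09) to 0.14 with 1 array left out. In the ileum *Slc2a3* ranged from -0.0013 (without C09) to 0.25. The difference of *Slc2a3* between tissues ranged from -0.16 to 0.095, at 0.052 without E07 or A09, 0.095 without C09 and 0.022 without F09, and was 0.14 with the array code as a covariate. The cause was not tested. The array code could not be fitted in the ileum, where all arrays carry 09, and no gene had another cluster to try. The fit of the FIRE -/- arrays coded 09 was chosen after seeing the data and kept 5 genes lower and 2 higher in the hippocampus. No paired analysis was possible because the labels give no replicate numbers. Signals below the array medians of 4.29 to 4.46 are dim, which limits what can be said of *Slc2a2*, *Slc5a1* and *Treh* in the hippocampus and of *Slc2a5* in FIRE -/- hippocampus.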

Other observations

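*Lct*, the intestinal lactase gene, had a clear signal in the hippocampus, at 7.92, 7.40 and 7.72 in FIRE +/+ and 7.46, 7.80 and 7.50 in FIRE -/-. All 6 values lay above the FIRE +/+ ileum array E09, at 6.50, and below all other ileum arrays, at 8.58 to 11.55. The other disaccharidases were dim on these arrays, with *Sis* at 2.72 to 4.01 and *Mgam* at 2.75 to 3.54, and the enterocyte list had a mean of 3.31 to 3.96. The genotypes differed by -0.09 for *Lct* in the hippocampus (standard error 0.15, limma adjusted p = 0.992).

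*Slc2a12*, a facilitative carrier, read 7.37, 5.48 and 6.81 in FIRE +/+ and 7.28, 7.43 and 6.66 in FIRE -/- hippocampus, lowest on F07. The mean of 8 choroid plexus markers was 8.18, 4.95 and 7.41 and then 7.91, 8.24 and 7.22 on the same arrays, also lowest on F07, and its part in the *Slc2a12* values was not tested.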
